A study of Homo sapiens with 3 samples.

Results

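The genes described here are 19 cytosolic aminoacyl-tRNA synthetases and 26 genes of the amino acid response driven by the transcription factor ATF4. The 45 names were chosen with earlier results of these data known, in part for how they stood in these same libraries, so their values are given as a description. All 45 were among the 21308 genes listed in all 3 libraries, and 44 reached 1 CPM (a gene's reads scaled to a common library size) in 1 or more libraries and were tested. RNA was sequenced from UM-UC-3, a human bladder cancer line, to follow the loss of NONO, an RNA- and DNA-binding protein of transcription, splicing and paraspeckles. Cells were kept for 48 h with 75 nM of a control siRNA or with the same dose of 1 of 2 NONO siRNAs of different sequence, and each of the 3 treatments was sequenced once as paired 100 bp reads. The labels do not say whether the libraries came from separate cultures, so the spread behind the p-values may be technical. Within a gene that spread comes only from the 2 NONO siRNA libraries, which differ in siRNA sequence. It holds nothing on how far control libraries would vary. With a single control library, an effect of NONO loss and a peculiarity of that control cannot be told apart, and both siRNA folds share it.

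A cytosolic aminoacyl-tRNA synthetase joins an amino acid to its transfer RNA, which makes it the supplier of the ribosome. When uncharged tRNA, unfolded protein in the endoplasmic reticulum or other stresses activate an eIF2alpha kinase (GCN2, PERK, PKR or HRI), bulk translation is lowered while the mRNA of ATF4 is translated better. ATF4 then pairs with C/EBP proteins at C/EBP-ATF response elements and raises genes for amino acid synthesis, amino acid uptake and tRNA charging, so that its output is read from its targets rather than from its own mRNA.

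The libraries implied 27681990 reads in the control, 29408573 with NONO siRNA 1 and 28594569 with NONO siRNA 2. NONO stood at 823 CPM in the control and at 79.5 and 104 CPM with siRNA 1 and siRNA 2 (limma adjusted p = 0.00698). Of 12 urothelial markers, 8 were listed in all 3 libraries, and their levels summed to 199.0 CPM in the control, 101.6 CPM with siRNA 1 and 188.4 CPM with siRNA 2. UPK1B, UPK3A, KRT20 and KRT5 were not listed in all 3. The most abundant listed marker in the control was the simple-epithelium keratin KRT18 (111, 49.0 and 93.3 CPM), followed by KRT8 (77.1, 43.0 and 85.4 CPM). These keratins made up most of the sum, and every other listed urothelial marker stood at 5.71 CPM (FOXA1) or less in each library. Of 6 tested, 1 (PPARG, at 2.31, 3.09 and 4.3 CPM) stood higher with both siRNAs, against 37.8% of all tested genes. Lower with both were 3, against 34.5%, and 2 went opposite ways. Of 5 leukocyte markers 1 was listed in all 3, ITGAM, at 1.3, 0.68 and 0.245 CPM. The 4 listed endothelial markers summed to 57.98, 16.49 and 31.82 CPM, of which TIE1 alone gave 55.7, 15.4 and 30.2 CPM, and the 4 listed fibroblast markers summed to 28.07, 16.76 and 19.23 CPM. Their part in the results below was not tested. In such bulk RNA, fewer cells of a type and less RNA per cell cannot be told apart.

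Most of the 44 tested genes stood modestly higher after NONO siRNA. With both siRNAs 32 stood above the control library, against 37.8% of all 13922 tested genes, 5 stood below it with both, against 34.5%, and 7 went opposite ways. The median log2 fold was 0.26 with siRNA 1 and 0.27 with siRNA 2, while the median of all tested genes was 0.025 and 0.0073. Folds are differences of log2(CPM + 1). Summed over the 45 genes, the level was 6975 CPM in the control, 8470 CPM with siRNA 1 and 8443 CPM with siRNA 2. Because the genes were selected on the same contrast, nothing further is read from these shares.

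No single gene of the group passed limma's test, with 0 called higher and 0 called lower at an adjusted p under 0.05 over all tested genes, where 0.136% and 0.079% of all genes were called. At an unadjusted p under 0.05, limma put 9 genes higher (AARS1, HARS1, SARS1, DDIT3, TRIB3, PHGDH, PSPH, ASNS and SLC7A1) and 1 lower (CEBPB), against 6.95% and 4.45% of all genes. Of these, all except HARS1 and CEBPB stood at least 0.5 log2 above the control with both siRNAs, which makes 8, against 7.35% of all genes. Other tools called AARS1 alone among the 44. It was higher by edgeR, which called 0.507% of all genes higher, by DESeq2 (1.17%) and by limma with upper-quartile scaling (1.16%). None of the 44 was called lower by edgeR, where 0.413% of all genes were. The test has 1 residual degree of freedom and takes most of each gene's variance from the trend over all genes, so its p-values do not show how closely the siRNAs matched on that gene.

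**Figure D1:**
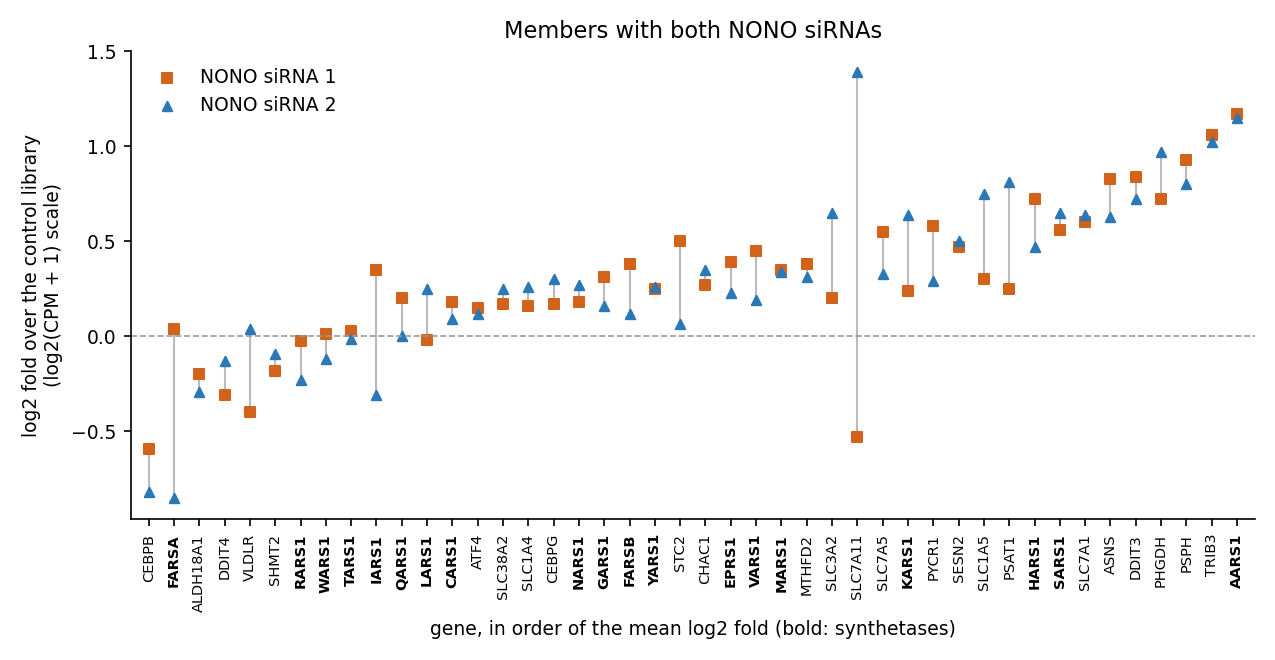
Log2 fold of each of the 44 tested genes over the control library with NONO siRNA 1 (squares) and NONO siRNA 2 (triangles), on the log2(CPM + 1) scale, with genes in order of their mean fold and synthetases in bold. AARS1 and TRIB3 lie above 1 with both siRNAs, and SLC7A11 lies at -0.53 with siRNA 1 and at 1.39 with siRNA 2.

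Among the synthetases AARS1, which charges the alanine tRNA, stood furthest from the control. AARS1 (ENSG00000090861, GENCODE 29 on GRCh38, chromosome 16, 70252295 to 70289543, minus strand) had a level of 123 CPM under the control siRNA, with an exact 95% Poisson interval of 119 to 127. Under siRNA 1 it was 278 CPM (272 to 284), and under siRNA 2 274 CPM (268 to 280). Both siRNA libraries lie well above the control and their intervals overlap each other. Poisson intervals cover counting error only, since PCR copies of reads are not independent molecules. The mean log2 fold was 1.16 (SE 0.22), with an adjusted p of 0.0779 by limma, 0.0397 by edgeR and 0.0152 by DESeq2, and the adjusted p ranged from 0.0152 to 0.566 over the settings tried. A mean fold at least as high was seen in 146 of the tested genes.

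SARS1 and HARS1 came next. SARS1, which charges serine tRNAs, was at 154 CPM in the control, 226 CPM with siRNA 1 and 242 CPM with siRNA 2, with a mean log2 fold of 0.6 (SE 0.22, limma adjusted p = 0.326). HARS1, for histidine, was at 97.2, 161 and 135 CPM, with a mean log2 fold of 0.59 (SE 0.24, limma adjusted p = 0.381). In both genes the counting intervals of the siRNA libraries lay above that of the control, and neither gene passed the test. Such separation was usual among the 45 genes. The counting interval of the ratio to the control spanned 1 in only 7 of them with siRNA 1 and 6 with siRNA 2. The share over all genes was not counted. KARS1, for lysine, was at 110, 129 and 172 CPM, so that siRNA 2 stood further off than siRNA 1.

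A middle group stood slightly higher with both siRNAs, QARS1 only in name with siRNA 2. MARS1, for methionine, was at 290 CPM in the control, 371 CPM with siRNA 1 and 367 CPM with siRNA 2, a log2 fold of 0.35 and 0.34. EPRS1, which carries both the glutamate and the proline activity, gave log2 folds of 0.39 and 0.23. VARS1 (valine) gave 0.45 and 0.19, GARS1 (glycine) 0.31 and 0.16, YARS1 (tyrosine) 0.25 and 0.26, and NARS1 (asparagine) 0.18 and 0.27. CARS1 (cysteine) gave 0.18 and 0.094, FARSB 0.38 and 0.12, and QARS1 (glutamine) 0.2 and 0.0014. The limma adjusted p of these genes lay at 0.588 or above.

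**Figure D2:**
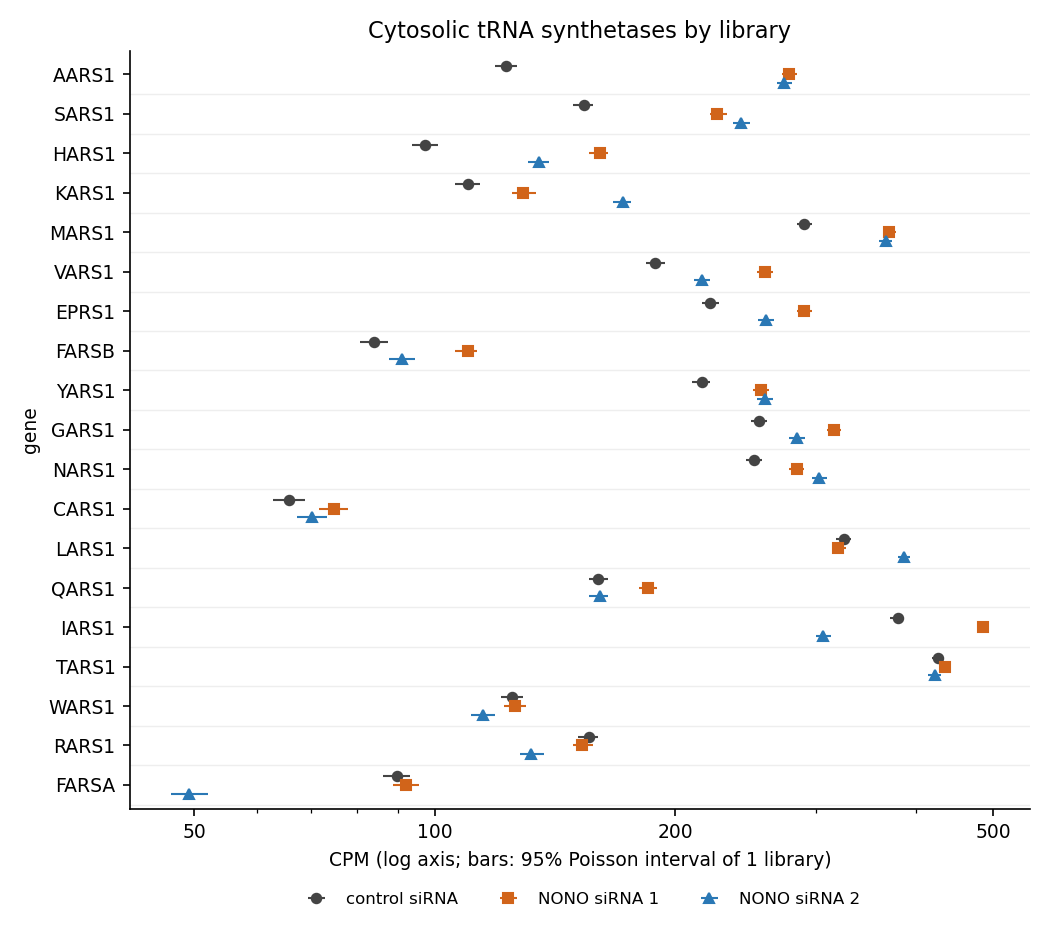
Level of the 19 cytosolic synthetases in each library in CPM on a log axis, with points for the control and both NONO siRNA libraries and bars for the 95% Poisson interval of that library. AARS1 runs from 123 CPM in the control to 278 and 274 CPM, while TARS1 lies at 427, 435 and 423 CPM.

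The remaining synthetases stood near the control or divided between the siRNAs. TARS1 (threonine) was at 427, 435 and 423 CPM, WARS1 (tryptophan) at 125, 126 and 115 CPM, and LARS1 (leucine) at 325, 320 and 387 CPM. RARS1, for arginine, was the only synthetase below the control with both siRNAs, at 156, 153 and 132 CPM. IARS1, for isoleucine, was at 380 CPM in the control, 486 CPM with siRNA 1 and 306 CPM with siRNA 2, so the siRNA libraries lay on opposite sides of it. The direction of TARS1 turned with the scaling, as its log2 fold was near 0.

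FARSA and FARSB encode the alpha and beta subunits of a single phenylalanine enzyme, and their levels diverged. FARSA was at 89.7 CPM in the control, 92.1 CPM with siRNA 1 and 49.3 CPM with siRNA 2. The siRNA 2 library lay far below the other two, with a ratio of 0.536 to siRNA 1 (95% interval of counting error 0.502 to 0.571). FARSB was at 84.0, 110 and 91.1 CPM in the same order. Per kb of exon, FARSA stood at 1.48 times the level of FARSB in the control, 1.16 times with siRNA 1 and 0.749 times with siRNA 2. The mean log2 fold of FARSA was -0.41 (SE 0.35, limma adjusted p = 0.729).

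Counted over the 19 synthetases, 13 stood higher with both siRNAs, 1 lower and 5 opposite ways. The 13 include QARS1, whose log2 fold with siRNA 2 was 0.0014. The median log2 fold of the 19 was 0.25 with siRNA 1 and 0.19 with siRNA 2. The summed level of the 19 was 3717 CPM in the control, 4554 CPM with siRNA 1 and 4246 CPM with siRNA 2. No synthetase held fewer than 1410 reads in any library, so counting error was small. Per kb of exon in the control library, TARS1 (74.6 CPM per kb), GARS1 (61.3) and NARS1 (61.3) were the most abundant and CARS1 (6.55) the least, with AARS1 at 27.3.

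The synthetases were also divided by whether they are often described as ATF4 targets. Of the 13 so described, 9 (69.2%) stood higher with both siRNAs, 0 lower and 4 went opposite ways. Their median log2 fold was 0.31 and 0.23 for siRNA 1 and siRNA 2. Of the other 6, 4 (66.7%) stood higher, 1 lower and 1 went opposite ways, with medians of 0.22 and 0.059. Among all tested genes 37.8% stood higher with both siRNAs and 34.5% lower. The difference between the 13 and the 6 was not tested. The multisynthetase complex is a cytosolic assembly of several synthetases. Its scaffold subunits AIMP1 (21.7, 31.6 and 32.0 CPM) and AIMP2 (17.6, 27.5 and 24.3 CPM) stood higher with both siRNAs, with limma adjusted p of 0.491 and 0.505. EEF1E1, the third scaffold gene, was at 5.67, 4.32 and 7.66 CPM.

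Mitochondrial tRNA synthetases, which charge tRNAs inside the organelle, served as a comparison. Of 16 tested, 10 stood higher with both siRNAs, against 37.8% of all tested genes, and 3 lower, against 34.5%, with median log2 folds of 0.31 and 0.077. Limma called 0 of them, with 1 higher at an unadjusted p under 0.05, against 6.95% of all genes. That gene, EARS2 (glutamate), was at 18.5 CPM in the control and at 49.6 and 38.5 CPM with siRNA 1 and siRNA 2. Its adjusted p was 0.127 by limma, 0.0406 by limma with upper-quartile scaling, 0.0761 by edgeR and 0.0361 by DESeq2, and at most 0.566 over the settings tried. TARS2 stood at 15.0, 25.9 and 21.3 CPM. MARS2 went the other way, at 37.2, 27.6 and 20.1 CPM, as did YARS2, with log2 folds of -0.49 and -0.58. No difference between the cytosolic and the mitochondrial enzymes was tested.

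Among the regulators, the mRNA of ATF4 itself was close to the control with both siRNAs, at 445 CPM in the control, 495 CPM with siRNA 1 and 486 CPM with siRNA 2. Its log2 folds were 0.15 and 0.12 (limma adjusted p = 0.851). TRIB3, a pseudokinase that is induced by ATF4 and DDIT3 and dampens ATF4, was at 33.1, 69.8 and 68.1 CPM. Both siRNA libraries were about equally far above the control, with a mean log2 fold of 1.04 (SE 0.24), and an adjusted p of 0.134 by limma and 0.102 by edgeR. The lowest adjusted p of TRIB3 over the settings tried was 0.0574.

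DDIT3 (CHOP), a stress transcription factor, was sparse, at 3.4 CPM in the control (94 reads) and at 6.87 and 6.26 CPM with the siRNAs. Its mean log2 fold was 0.78 (SE 0.29, limma adjusted p = 0.335). SESN2, a leucine-sensing inhibitor of mTORC1, was at 50.5, 70.5 and 71.6 CPM. CEBPG, which dimerises with ATF4, gave 68.3, 76.7 and 84.4 CPM, and CHAC1, which degrades glutathione, gave 6.97, 8.6 and 9.13 CPM. All 4 stood above the control in both siRNA libraries, DDIT3 by the most on the log2 scale.

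A pair of regulators stood lower. CEBPB, a C/EBP partner of ATF4, was at 168 CPM in the control, 111 CPM with siRNA 1 and 94.4 CPM with siRNA 2. Both siRNA libraries lay below the control, with a mean log2 fold of -0.7 (SE 0.24, limma adjusted p = 0.287). DDIT4 (REDD1), another mTORC1 inhibitor, was at 37.9, 30.3 and 34.6 CPM. Thus 6 of the 8 regulators stood higher with both and 2 lower.

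The serine pathway held some of the larger differences. PHGDH, which diverts the glycolytic intermediate 3-phosphoglycerate towards serine, was at 120 CPM in the control, 199 CPM with siRNA 1 and 236 CPM with siRNA 2. The counting intervals of the siRNA libraries did not overlap that of the control. The mean log2 fold was 0.85 (SE 0.23, adjusted p 0.191 by limma and 0.154 by edgeR). The next enzyme, PSAT1, was at 175, 208 and 306 CPM, so siRNA 2 stood further off than siRNA 1. The last, PSPH, was at 14.3, 28.3 and 25.7 CPM, with a mean log2 fold of 0.87 (SE 0.27, limma adjusted p = 0.247). All 3 enzymes of the route from glycolysis to serine therefore stood above the control with both siRNAs.

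Of the mitochondrial folate enzymes, SHMT2, which splits serine into glycine and a folate-bound carbon, was slightly below the control, at 228, 201 and 213 CPM. MTHFD2, which oxidises that carbon unit, was at 140, 182 and 174 CPM. ALDH1L2 was near the limit of detection, at 0.795 CPM in the control (22 reads), 0.816 with siRNA 1 and 0.629 with siRNA 2, and was the gene below 1 CPM in every library. Just above that limit, DDIT3 and SLC1A4 had the lowest control levels of the 44.

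For asparagine and proline, ASNS, which amidates aspartate, was at 167 CPM in the control, 299 CPM with siRNA 1 and 260 CPM with siRNA 2. Both siRNA libraries lay above the control (mean log2 fold 0.73, SE 0.22, limma adjusted p = 0.239). PYCR1, the last step of proline synthesis, was at 35.3, 53.1 and 43.4 CPM. ALDH18A1, the first step, stood slightly lower with both siRNAs, at 121, 105 and 98.3 CPM.

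**Figure D3:**
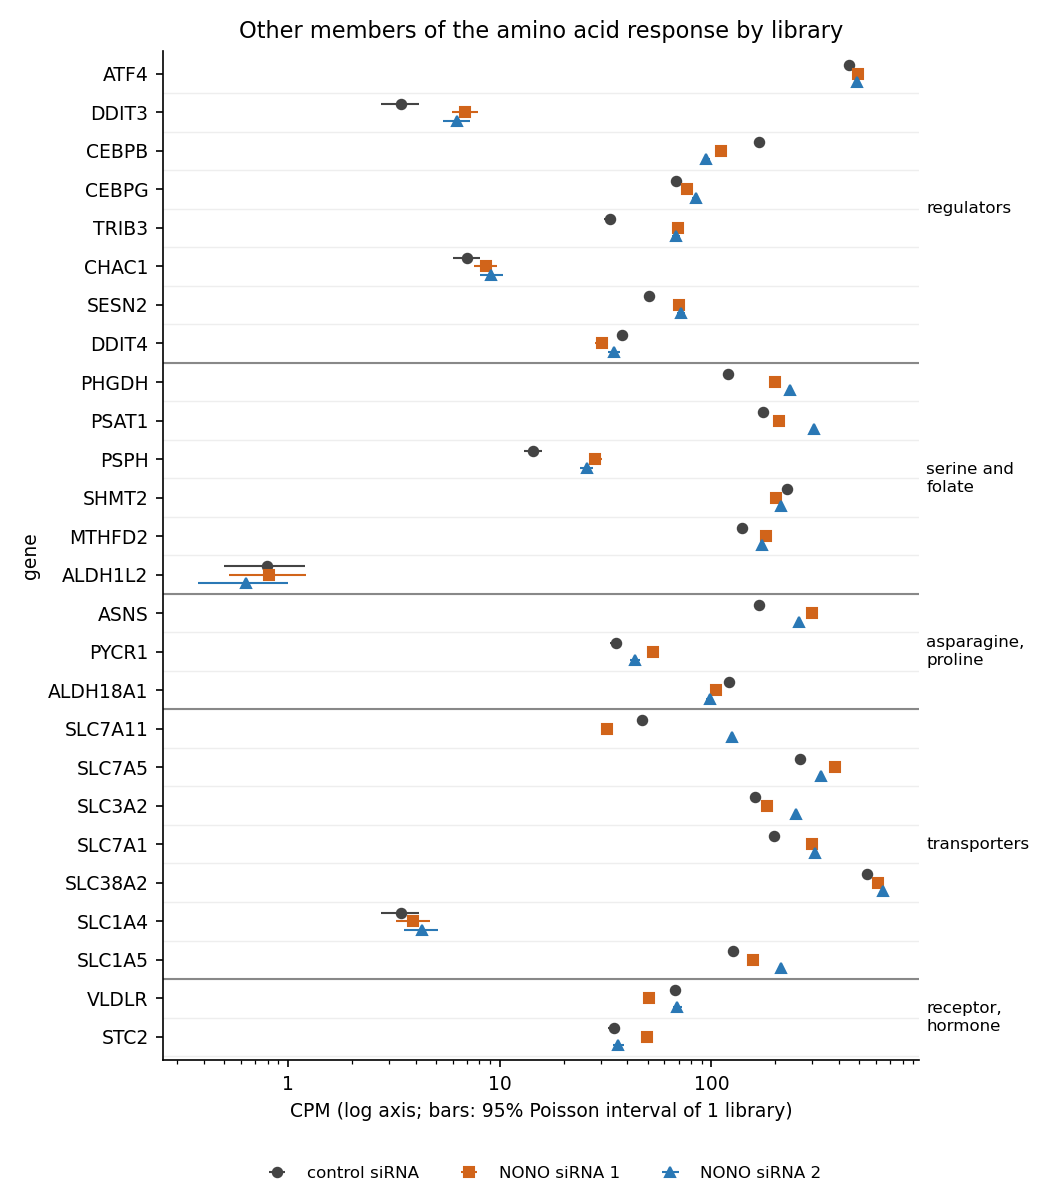
Level of the 26 other genes in each library in CPM on a log axis, grouped by role, with bars for the 95% Poisson interval of that library. TRIB3, PHGDH, PSPH and ASNS have both NONO siRNA points right of the control point, CEBPB has both left of it, and SLC7A11 has 1 on each side.

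Of the 7 transporters, 6 stood higher with both siRNAs and 1 divided. SLC7A1, an importer of cationic amino acids, was at 198 CPM in the control, 300 CPM with siRNA 1 and 310 CPM with siRNA 2 (mean log2 fold 0.62, SE 0.21, limma adjusted p = 0.294). SLC7A5 and SLC3A2 are the light and heavy chains of the LAT1 exchanger of large neutral amino acids. SLC7A5 was at 261, 382 and 330 CPM and SLC3A2 at 160, 184 and 251 CPM, and per kb SLC7A5 stood at 1.78, 2.26 and 1.43 times SLC3A2. SLC1A5, a glutamine carrier, was at 127, 157 and 213 CPM. SLC38A2 (545, 611 and 647 CPM), an importer of small neutral amino acids, and SLC1A4 (3.4, 3.91 and 4.27 CPM), a carrier of alanine, serine and cysteine, differed least.

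SLC7A11, the light chain of the cystine-glutamate exchanger, differed most between the siRNAs. It was at 47.0 CPM in the control, 32.2 CPM with siRNA 1 and 125 CPM with siRNA 2. The siRNA libraries lay on opposite sides of the control, with log2 folds of -0.53 and 1.39 and a mean of 0.43 (SE 0.61, limma adjusted p = 0.847). The ratio of siRNA 2 to siRNA 1 was 3.88 (95% interval of counting error 3.61 to 4.17). On the log2 scale 10 of the tested genes, SLC7A11 included, stood higher with siRNA 2 than with siRNA 1 by at least as much. Differences in the other direction were not counted. Per kb, SLC7A11 stood at 0.157, 0.0938 and 0.267 times its heavy chain SLC3A2. The lipoprotein receptor VLDLR was at 67.1, 50.5 and 69.1 CPM, and the secreted glycoprotein STC2 at 34.6, 49.5 and 36.3 CPM.

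Set against each other, the synthetases and the other genes were compared by their medians. The median log2 fold of the 19 synthetases was 0.25 and 0.19, and that of the other 25 tested genes was 0.27 and 0.33. The difference of medians, synthetases minus others, was thus -0.022 with siRNA 1 and -0.14 with siRNA 2. Higher with both siRNAs were 13 of 19 synthetases (68.4%) and 19 of 25 others (76.0%). The others ranged more widely, from -0.59 to 1.06 with siRNA 1 and from -0.82 to 1.39 with siRNA 2, than the synthetases, from -0.025 to 1.17 and from -0.85 to 1.15. Genes are not replicates, and the difference was not tested.

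**Figure D4:**
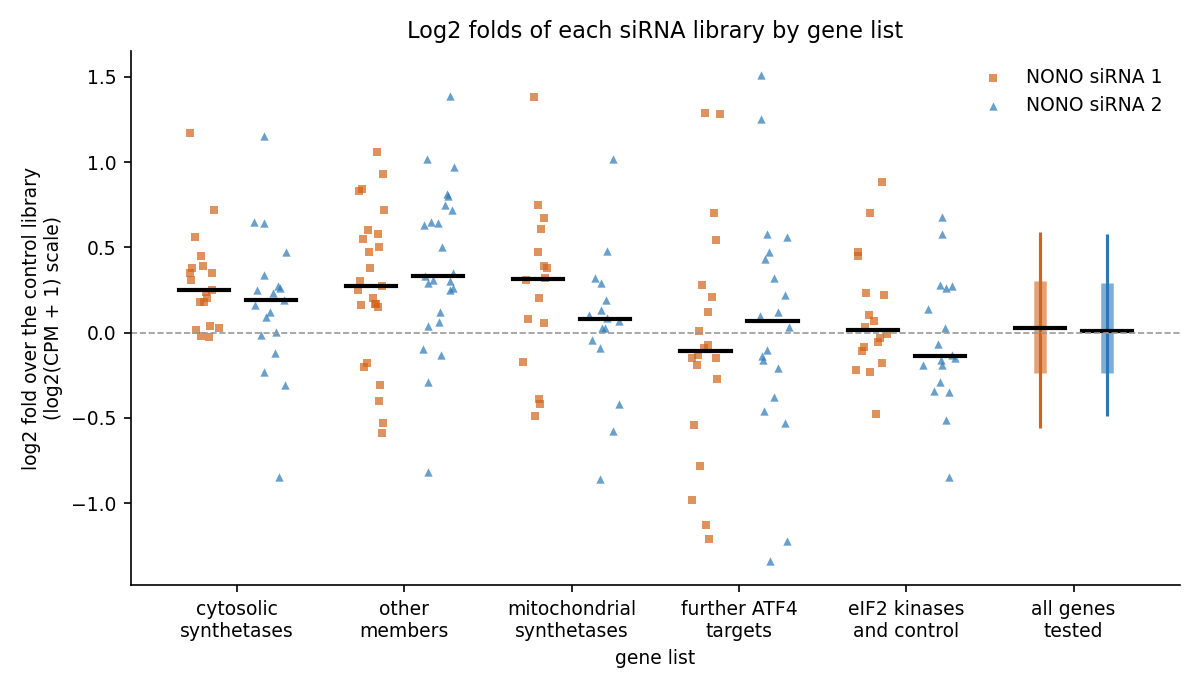
Log2 fold over the control library of the genes in each list, for NONO siRNA 1 and NONO siRNA 2, with each point a gene and the black bar the median of the list, and for all tested genes a thick bar from the lower to the upper quartile and a thin one from the lowest to the highest decile. The medians of the cytosolic synthetases are 0.25 and 0.19, those of the further ATF4 targets -0.11 and 0.066, and those of all tested genes 0.025 and 0.0073.

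Further genes described as ATF4 targets stood on both sides of the control. Of 20 tested, 7 stood higher with both siRNAs, against 37.8% of all tested genes, 8 lower, against 34.5%, and 5 opposite ways, with medians of -0.11 and 0.066. Limma called 0 of them, with 3 higher and 3 lower at an unadjusted p under 0.05, against 6.95% and 4.45% of all genes. CBS, which makes cystathionine from homocysteine and serine, was at 3.94, 11.1 and 10.7 CPM. Its adjusted p was 0.119 by limma and 0.0427 with upper-quartile scaling, 0.0709 by edgeR and 0.0621 by DESeq2, and at most 0.566 over the settings tried. SLC43A1, a neutral amino acid carrier, was at 9.1, 3.37 and 3.32 CPM (limma adjusted p = 0.136). GADD45A, a stress and growth-arrest gene, was at 141 CPM in the control and at 71.4 and 55.2 CPM with the siRNAs. It was called lower by edgeR (adjusted p = 0.0441), by DESeq2 (0.0239) and by limma with upper-quartile scaling (0.029) but not by limma as otherwise run (0.119), and its adjusted p reached 0.566 at most. DESeq2 called 0.508% of all genes lower and limma with upper-quartile scaling 0.575%. PPP1R15A (GADD34), which directs the dephosphorylation of eIF2alpha, was at 74.7, 122 and 113 CPM.

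Genes that start or shape the eIF2alpha signal were mixed, with 6 of 18 higher with both siRNAs, against 37.8% of all tested genes, 8 lower, against 34.5%, and 4 opposite ways, and medians of 0.013 and -0.14. Limma called 0 of these, with 2 higher and 0 lower at an unadjusted p under 0.05, against 6.95% and 4.45% of all genes, and edgeR and DESeq2 called 0. OMA1, the mitochondrial protease that relays organelle stress to HRI, was at 5.78, 11.5 and 9.9 CPM. EIF2AK1 (HRI) was at 84.7, 118 and 103 CPM, EIF2AK2 (PKR) at 102, 73.2 and 80.0 CPM, EIF2AK3 (PERK) at 20.4, 18.8 and 16.6 CPM and EIF2AK4 (GCN2) at 77.6, 68.4 and 85.5 CPM. None of these 4 kinases passed the test. These are mRNA levels, and the phosphorylation of eIF2alpha and the amount of ATF4 protein were not measured.

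The promoters show the letters that ATF4 and C/EBP are known to read. RefSeq promoters (GRCh38.p14, 250 bases before to 50 after each annotated start, any annotated start counted) were searched on both strands for TGATGNAA, a short form of the C/EBP-ATF response element. All 14 genes with a match are shown with their flanks, 5′ to 3′ on the strand on which the match reads forward, with the match in capitals and its place given as GRCh38.p14 coordinates.

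AARS1, chr16:70289686-70289693, plus strand: taacttggcTGATGCAActgcgagaa
CARS1, chr11:3057418-3057425, plus strand: cctagaatcTGATGCAAccgccgccc
GARS1, chr7:30594845-30594852, minus strand: ctcggagcaTGATGAAAtcgccgcgt
IARS1, chr9:92293703-92293710, plus strand: gcacggaggTGATGCAAcgcgctgaa
MARS1, chr12:57488064-57488071, minus strand: atccctcgcTGATGCAAccggaaccg
NARS1, chr18:57621815-57621822, minus strand: tacgctctcTGATGCAAcgccggaat
TARS1, chr5:33440967-33440974, minus strand: tggaccagcTGATGCAAtcgaaaggc
CEBPG, chr19:33374071-33374078, plus strand: cgcggcgtcTGATGCAAcctgccggc
CHAC1, chr15:40953262-40953269, minus strand: tggcaggagTGATGCAAcggcagggg
ASNS, chr7:97872469-97872476, minus strand: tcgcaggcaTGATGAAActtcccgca
SLC1A4, chr2:64989392-64989399, minus strand: ggctggagaTGATGCAAacgggagcc
SLC1A5, chr19:46784904-46784911, minus strand: ggaagtggcTGATGCAAgctgtccag
SLC3A2, chr11:62881736-62881743, minus strand: ggagcTGATGTAAggagtcctg
SLC7A1, chr13:29595674-29595681, minus strand: gcgcactgcTGATGAAAcctggcgcc

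Promoters were matched for 37 of the 45 genes, and 14 of them (37.8%) held the motif, against 3.62% of all 35116 promoters in the table and 2.74% of 10205 tested genes with a promoter. It was found in 7 of 16 cytosolic synthetases (43.8%), 7 of 21 other genes (33.3%) and 1 of 14 mitochondrial synthetases (7.14%). The form TGATGCAA, which is contained in the first, was in 10 of the 37 (27.0%) against 0.735% of tested genes. Since the names are largely those of described ATF4 targets, this share is a property of the choice. In AARS1 the match lay 187 bases upstream of the start, and in 8 genes (CARS1, IARS1, MARS1, NARS1, SLC1A4, SLC7A1, TARS1 and GARS1) it lay within 33 bases of it. No match says only that these letters are not in this window. LARS1, VARS1, YARS1, PSPH, SHMT2, ALDH1L2, PYCR1 and SLC7A11 were not searched.

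**Figure D5:**
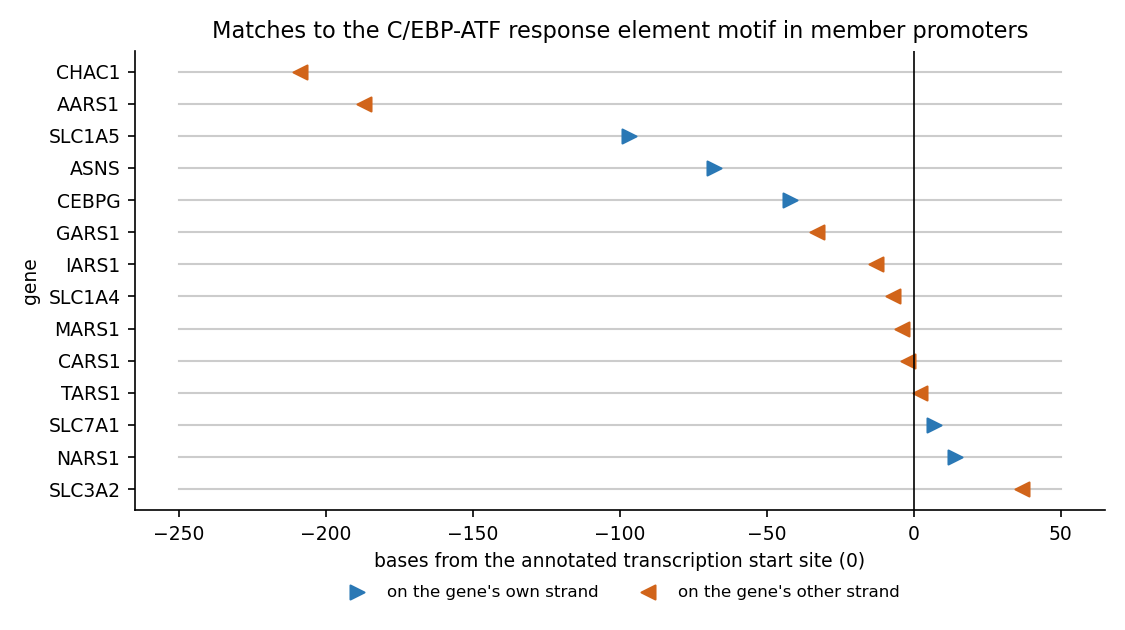
Place of the first base, along the gene, of each TGATGNAA match relative to the annotated start site in bases, with triangles pointing along the strand on which it reads forward and grey lines for the 300 bases searched. The match lies 187 bases upstream in AARS1 and 209 in CHAC1, and most others lie near the start.

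Folds of genes with and without the match were set side by side, with no test. Of the 14 with it, 12 stood higher with both siRNAs, with medians of 0.29 and 0.32. Of the 23 without it 16 did, with medians of 0.25 and 0.23. Among all tested genes 37.8% stood higher with both. AARS1, with the largest mean fold of the cytosolic synthetases, carries TGATGCAA. TARS1, at 427, 435 and 423 CPM, carries it too. ASNS and SLC7A1, with mean log2 folds of 0.73 and 0.62, carry TGATGAAA. TRIB3 and PHGDH hold no match in this window. Whether a match bears on a fold was not tested. Among all tested genes with a promoter, 100 of 280 with the match stood higher with both siRNAs, and their medians were -0.0084 and 0.022. Without the match 3764 of 9925 did, with medians of 0.028 and 0.008.

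The siRNAs are shown because each can also act through its seed, the bases next to the 5′ end of a strand, on other transcripts. The capitals mark the 7 bases that equal the site read by the antisense strand's seed, and each sequence is written 5′ to 3′ as the labels give it.

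control siRNA: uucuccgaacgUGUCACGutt
NONO siRNA 1: ggcgaagucuuCAUUCAUatt
NONO siRNA 2: gcaucccuuacAGUUCGAatt

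In 1 GENCODE 29 transcript per gene, the antisense seed site of NONO siRNA 1 was present in 7 of the 44 tested genes (15.9%) and in 24.2% of 11792 genes, and that of NONO siRNA 2 in 5 of 44 (11.4%) and 11.2%. For the control siRNA, whose labelled strand was taken as sense, it was 3 of 44 (6.82%) and 7.36%. AARS1, TRIB3, PHGDH, PSPH, ASNS and FARSA hold none of these antisense sites, as do most of the 44. Among the genes that do, SARS1 holds that of NONO siRNA 1 and FARSB those of both NONO siRNAs. SLC7A11, whose transcript of 9645 bases is long, holds all 3. AARS1 does hold the site of the sense strand of both NONO siRNAs. The sense site of NONO siRNA 1 was in 11.4% of the 44 and 6.37% of the 11792 genes, and that of NONO siRNA 2 in 15.9% and 25.7%. No effect of a site on a level was tested.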

How the data were processed

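The authors deposited a table per library of normalized values, which the values show to be CPM without length scaling: 99.3%, 99.3% and 99.5% were whole multiples, within 0.01 reads, of the worth of 1 read, and 147, 147 and 117 genes at 0.5 of a read were taken as 0. The submitters' processing notes name the builds hg19 and GRCh37, with HTSeq 0.6.1, HISAT2 2.1.0 and bcl2fastq 2.19.1 as tools. The annotation release and the strandedness option were not given in the sources used here. Names came from a table holding 21049 of the 21308 identifiers, and gene coordinates are those of GENCODE 29 on GRCh38.

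With R 4.3.3, limma 3.58.1 (trend) compared both NONO siRNA libraries with the control on log2(CPM + 1) for genes of at least 1 CPM in a library, with 7.68 prior degrees of freedom, two-sided p and Benjamini-Hochberg adjustment over all 13922 genes. Alternatives were other scalings, filters and pseudocounts, and edgeR 4.0.16 (quasi-likelihood) and DESeq2 1.42.0 on the recovered reads. The limma and edgeR fits were tested on simulated data with known changes. Members and lists were chosen with earlier results of these data known. Named were NONO, every member, called genes of the other lists, up to 4 genes a list by the smaller absolute fold of the siRNAs, and the members nearest 1 CPM; a few further genes, among them the kinases of eIF2alpha, were named after their values were seen. Some genes that the rule names are not reported here. Exons of 22 members overlap another gene on either strand and 14 have a named pseudogene, so their reads are less certain.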

Additional observations from a re-analysis of the deposited data

How the results depend on the processing

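limma called 30 genes in all. It called 4 with TMM scaling, 241 with upper-quartile scaling, 5 with a mean of at least 5 CPM, 3 without a trend and 0 with no filter on low values (1882 at an unadjusted p under 0.05); edgeR called 156 and DESeq2 198. Called higher among the members were 0 by limma and 1 (AARS1) with upper-quartile scaling, edgeR and DESeq2. The median log2 fold of the mean over both siRNAs was 0.24 for synthetases, and 0.19 to 0.25 when either siRNA library was left out. For the other members it was 0.42, with 0.37 by edgeR, 0.37 by DESeq2 and 0.27 to 0.33 when either was left out, and the difference was -0.19, with -0.14 to -0.022. The log2 fold of TARS1 was 0.0083 and turned to -0.012 with TMM, -0.0047 with upper-quartile scaling, -0.018 by edgeR and -0.02 by DESeq2. Of 395 values of single members over 9 settings that kept both siRNA libraries, 388 kept direction and side of the threshold. Leaving out a siRNA library is not among these settings. It turned the direction of each of the 7 members that went opposite ways, depending on which library was left out. SLC7A11, for instance, went from 0.43 to -0.53 without siRNA 2. With either siRNA library left out, a median is that of the other siRNA's own folds, and the median of the means over both need not lie between them. The cause of the differences between tools, scalings and filters was not tested. No paired analysis was possible because the control group has 1 library and its label carries no replicate number. Genes of few reads, such as DDIT3, ALDH1L2 and SLC1A4, are limited by depth.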

Other observations

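Outside the mitochondrial folate enzymes given above, MTHFD1, the cytosolic folate enzyme, was at 161 CPM in the control and at 213 and 202 CPM with siRNA 1 and siRNA 2 (limma adjusted p = 0.591). ERO1A, an oxidase of the endoplasmic reticulum, resembled SLC7A11 in its split between the siRNAs, at 127, 114 and 363 CPM (limma adjusted p = 0.703).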
